A study of Mus musculus with 18 samples.

Results

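Casq2, Adgrg5, Foxd1 and Adam23 are 4 mouse genes compared here between wild-type (WT) and Dgcr8 knockout (KO) embryonic stem cells (ESCs). Their reads were many times higher in every polysome gradient fraction of KO than of WT ESCs. Casq2, Adgrg5 and Foxd1 were at a low level in WT cells, whereas Adam23 lay above 51.4% of the genes tested. The 4 genes were chosen by the read counts of the WT and KO libraries. Their difference between the genotypes is therefore described here and not tested. The 4 genes were found by symbol among 51467 genes of the count table, and all 4 were among the 12851 genes with enough reads to test. Casq2, Adgrg5 and Foxd1 passed that filter through their KO libraries.

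The cells were V6.5 ESCs as WT and a previously derived Dgcr8 KO ESC line, both grown in serum with LIF and the 2 inhibitors of the 2i medium. The KO group is a single line, so that the genotype and the history of that line cannot be told apart. Lysates of cells held for 2 minutes in 100 ug/ml cycloheximide, which stalls ribosomes on messages, were separated on 10 to 50% sucrose gradients into monosomes, low polysomes (2 to 4 ribosomes) and high polysomes (4 or more). With 3 gradients per genotype, this gave 18 libraries in 6 groups of 3, sequenced from the 3′ ends of polyadenylated RNA with QuantSeq. Totals were 1151649 to 4984833 counts per library, and the monosome libraries of WT cells were the shallowest. All 10 naive ESC markers examined, among them Nanog, Sox2 and Zfp42, had reads in each of the 18 libraries. Dgcr8 kept 38 to 183 reads in the KO libraries against 67 to 251 in WT, but 3′ end reads need not cover the deleted stretch of a gene and do not check the genotype.

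DGCR8 is the RNA-binding partner of the nuclease DROSHA. Together they cut primary microRNA transcripts in the nucleus, and cells without DGCR8 cannot make canonical microRNAs. In ESCs a large part of the microRNA pool belongs to the ESCC group of the miR-290 and miR-302 clusters, whose members repress messages that carry a match to their seed, the bases near the 5′ end that pair with the target. In a polysome gradient, messages with more ribosomes sediment further, and the study uses the ratio of high polysome to monosome reads as its measure of translation level.

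The 4 genes differ in what they encode and where in the genome they lie (all coordinates on GRCm38). Casq2 (ENSMUSG00000027861, chromosome 3, 102086415 to 102146514, plus strand, 11 exons) encodes calsequestrin 2, which stores calcium in the sarcoplasmic reticulum of heart muscle. Adgrg5 (ENSMUSG00000061577, chromosome 8, 94923694 to 94943280, plus strand, 12 exons) encodes an adhesion G protein-coupled receptor. Adam23 (ENSMUSG00000025964, chromosome 1, 63445891 to 63596276, plus strand, 26 exons) encodes a membrane protein of the disintegrin and metalloprotease family that lacks protease activity and is best known as a receptor for LGI proteins on neurons. Foxd1 (ENSMUSG00000078302, chromosome 13, 98354242 to 98359305, plus strand, 1 exon) encodes a forkhead transcription factor known from the stroma of the developing kidney and from the retina. The gene model used for counting ended at 98356703 for Foxd1. The last 2602 bases of the newer GENCODE M21 model of Foxd1, part of its 3′ UTR, were therefore not counted, and reads from a 3′ end there are missing from its values.

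Some ESCC microRNAs with an identical seed are shown because they are among the most studied repressors lost with DGCR8 in these cells. The list is not complete, as miR-302a-3p was not among the sequences looked up. In the RefSeq mature sequences (GRCm38), capitals mark bases 2 to 8, the seed.
mmu-miR-291a-3p: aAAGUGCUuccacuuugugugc
mmu-miR-294-3p: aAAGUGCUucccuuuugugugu
mmu-miR-295-3p: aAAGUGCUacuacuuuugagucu
mmu-miR-302b-3p: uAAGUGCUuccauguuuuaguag
mmu-miR-302d-3p: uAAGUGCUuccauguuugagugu

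The members did not share a match to this seed. Of the 4 principal 3′ UTRs in GENCODE M21, 2 held a match of 7 or 8 bases. They are printed as windows of 30 bases on the plus strand, with the matched bases, including the A opposite base 1 of the microRNA, in capitals.
Adgrg5, chr8:94942403-94942432: gcaccctgctcAGCACTTAcagatacttac
Adam23, chr1:63593001-63593030: cccagcctgctgGCACTTAatattttctaa

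The Adgrg5 window holds the full match of 8 bases, a class found in 3.33% of the 3′ UTRs of 11759 tested protein-coding genes. The Adam23 window holds a match to bases 2 to 7 followed by A, and 3.14% of those 3′ UTRs had such a match as their best. Any match of 7 or 8 bases was present in 19.2% of all of them, and long 3′ UTRs held one more often. The share was 17.4% among 1175 genes with 3′ UTRs of 1001 to 1344 bases, the band of Casq2 (1087 bases) and Adgrg5 (1151 bases). It was 38.0% in the band of Foxd1 (3318 bases) and 55.3% in that of Adam23 (3623 bases). The 3′ UTRs of Casq2 and Foxd1 held no match of 6 or more bases. A match is a description of letters, and its absence says only that these letters are not in the annotated 3′ UTR.

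Levels were given as CPM, read counts relative to the library total after TMM scaling. QuantSeq yields reads from the end of a transcript, so that CPM does not grow with its length and was not divided by length. In bulk RNA, more cells that express a gene and more RNA of it per cell cannot be told apart.

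Casq2 was the member with the lowest mean level in WT cells and the steepest rise along the KO gradient. In WT cells it had 1, 1 and 0 reads in the 3 monosome libraries, 2, 2 and 3 in the low polysome libraries and 2, 4 and 6 in the high polysome libraries. In KO cells the same fractions held 51, 75 and 55 reads, 160, 148 and 228 reads, and 425, 579 and 953 reads. Every KO library lay above every WT library of its fraction, the closest pair being 32.2-fold apart in CPM. Mean levels in KO cells were 26.3 ± 4.17 CPM in monosomes, 52.2 ± 6.76 CPM in low polysomes and 180 ± 39.3 CPM in high polysomes (SD, n = 3).

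Adgrg5 had 2, 1 and 2 WT reads in monosomes, 1, 4 and 2 in low polysomes and 6, 0 and 2 in high polysomes. In KO cells it had 46, 91 and 76 reads in monosomes, 66, 80 and 121 in low polysomes and 140, 206 and 310 in high polysomes. The groups did not overlap in any fraction. The KO monosome and low polysome levels, 30.2 ± 4.90 and 25.9 ± 5.76 CPM, overlapped between libraries, and the high polysome level of 60.5 ± 12.8 CPM stood above both (SD, n = 3).

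Foxd1 had 3, 5 and 3 WT reads in monosomes, 4, 5 and 8 in low polysomes and 0, 9 and 6 in high polysomes. In KO cells it had 64, 129 and 120 reads in monosomes, 121, 136 and 188 in low polysomes and 97, 117 and 167 in high polysomes. It was the only member with a nearly level profile, at 44.2 ± 7.65 CPM in KO monosomes, 43.4 ± 6.10 CPM in low polysomes and 35.6 ± 3.22 CPM in high polysomes (SD, n = 3), and its 3 KO fractions overlapped.

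Adam23 was not near absent in WT cells. Its WT libraries held 22, 30 and 13 reads in monosomes, 109, 140 and 66 in low polysomes and 78, 81 and 78 in high polysomes. Its mean WT level over the 9 libraries, 25.3 CPM, lay above that of 51.4% of the genes tested, whereas those of Casq2 (0.846 CPM), Adgrg5 (0.978 CPM) and Foxd1 (2.03 CPM) lay above 1.05%, 1.28% and 4.56%. In KO cells Adam23 held 541, 574 and 617 reads in monosomes, 2225, 2062 and 2558 in low polysomes and 1942, 2236 and 2298 in high polysomes. These correspond to 255 ± 40.6, 672 ± 11.6 and 622 ± 85.1 CPM (SD, n = 3). Averaged over the 9 KO libraries, Adam23 at 516 CPM lay above 97.6% of the genes tested, Casq2 at 86.1 CPM above 79.2%, Foxd1 at 41.1 CPM above 62.3% and Adgrg5 at 38.9 CPM above 61.0%. The order in KO cells was thus Adam23, Casq2, Foxd1 and Adgrg5, but the libraries of Foxd1 (32.1 to 50.1 CPM) and Adgrg5 (20.3 to 71.2 CPM) overlapped, as did those of Casq2 (21.5 to 219 CPM) with both.

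Reads at this depth set how firmly the WT level can be stated. A count of 3 was used as the floor of detection, which corresponds to 0.689 to 2.65 CPM depending on the library. Casq2 and Adgrg5 were at or under it in 7 of the 9 WT libraries each and Foxd1 in 3, and each of the 3 genes was at 0 in 1 library. Adam23 was above it in all 9. None of the 4 was thus at 0 throughout WT cells.

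**Figure D1:**
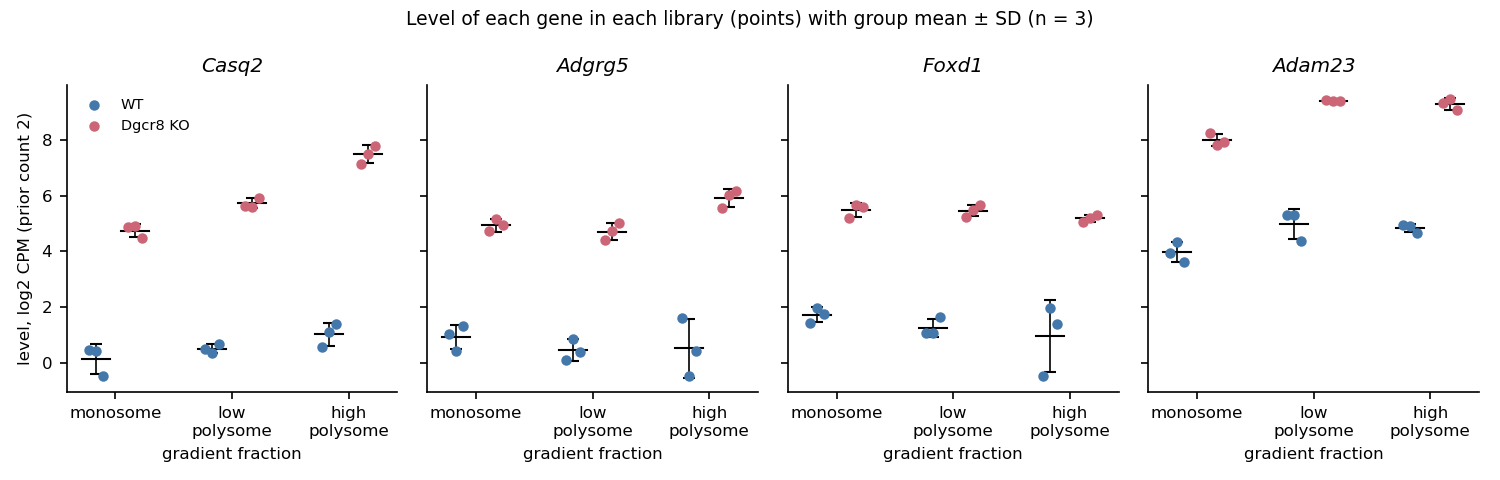
Level of each gene in each library as log2 CPM with a prior count of 2 (y axis) by gradient fraction (x axis), WT in blue and Dgcr8 KO in red. Points are libraries and black bars the group mean ± SD (n = 3). The KO points of Casq2 climb from monosome to high polysome, those of Foxd1 stay level, and the WT points of Adam23 (11.5 to 39.1 CPM) sit well above those of the other 3 genes (0 to 3.24 CPM).

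The KO to WT ratio of pooled reads, with its exact 95% conditional binomial interval, measures the difference that chose the genes. These intervals cover counting error only and leave out the spread between gradients, since reads were pooled over libraries. PCR copies may also be counted, as molecular identifiers were not mentioned. Over all fractions Casq2 was 103-fold higher in KO cells (67.2 to 167), from 2674 KO and 21 WT reads. Adgrg5 was 45.9-fold higher (29.6 to 75.5), Foxd1 21.4-fold (15.8 to 29.8) and Adam23 19.7-fold (18.2 to 21.4). By fraction, Casq2 was 54.5-fold higher in monosomes (14.9 to 454), where the WT libraries held 2 reads in all, 73.3-fold in low polysomes (35.3 to 183) and 130.5-fold in high polysomes (74.5 to 253). Adgrg5 was 25.7-fold higher in monosomes (10.8 to 79.9), 36.5-fold in low polysomes (17.5 to 91.7) and 65.6-fold in high polysomes (33.1 to 153). Foxd1 was 17.2-fold (9.45 to 34.7), 25.1-fold (15.5 to 43.4) and 20.3-fold higher (12.2 to 36.7) in the same order. For these 3 genes the intervals of the fractions overlapped. Single WT libraries weighed on the high polysome ratios, since on the log2 scale that of Adgrg5 went from 6.04 to 7.52 without WT gradient 1 (6 of its 8 WT reads) and that of Foxd1 from 4.34 to 5.095 without WT gradient 2 (9 of its 15). Adam23, with the most reads, had the narrowest intervals, at 16.1-fold (12.5 to 20.9), 20.8-fold (18.6 to 23.4) and 21.9-fold (19.2 to 25.0). The intervals of Adam23 overlapped as well. Its low polysome ratio, 4.378 on the log2 scale, ranged from 4.116 to 4.564 when a library was left out.

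In each of the 3 fractions, 4 of 4 members had no overlap between KO and WT libraries, which the choice of the genes fixes. Of all 12851 genes tested, every KO library lay above every WT library for 23.5% in the monosome, 28.6% in the low polysome and 29.9% in the high polysome fraction. By the fit, 8.43% were called higher in KO monosomes, 11.4% in the low polysome and 15.1% in the high polysome fraction, a call being an adjusted p under 0.05 with an absolute log2 change over 1 in limma. Ranked by the mean fitted log2 change over the 3 fractions, Casq2 was 1st of 12851 genes at 5.97, Adgrg5 was 4th at 5.26, Foxd1 was 10th at 4.47 and Adam23 was 13th at 4.30. Fitted changes of genes with so few WT reads depend on how counts near 0 enter the log2 scale, and the pooled ratios above do not.

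**Figure D2:**
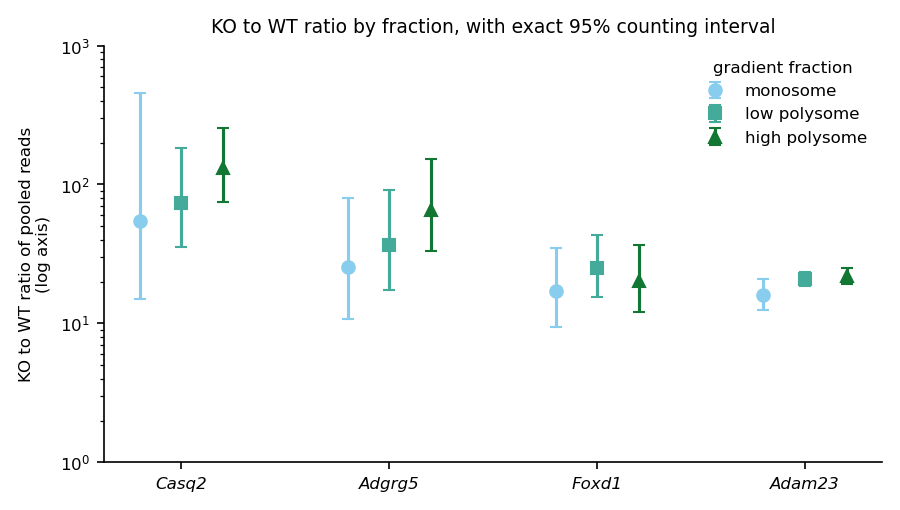
KO to WT ratio of reads pooled over 3 libraries per group (y axis, log scale) for each gene (x axis) and gradient fraction (symbols), with exact 95% counting intervals as bars. Casq2 spans 54.5-fold to 130.5-fold with wide overlapping intervals, and Adam23 lies between 16.1-fold and 21.9-fold with narrow ones.

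The choice of the genes used their level in each KO fraction but not the ratio between KO fractions. That ratio was tested in the same libraries. Its p-values and the counts of members called are therefore not independent of the choice. High polysome against monosome in KO cells, 2 of 4 members were called higher and none lower, where 17.5% of all genes tested were called higher and 25.5% lower (43.0% in either direction). Low polysome against monosome it was 1 of 4 against 6.34% higher and 10.5% lower (16.8% in either direction), and high against low polysome 2 of 4 against 9.43% higher and 16.4% lower (25.8% in either direction). The 3 contrasts share libraries and are not independent of each other.

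Casq2 had one of the largest shifts toward high polysomes. Its log2 ratios of high polysome to monosome were 2.28, 2.60 and 3.30 in the 3 KO gradients, and the fitted change was 2.77 (SE 0.18, adjusted p = 3.89e-17, limma), a 6.80-fold difference. That ranked 28th of 12851 genes, and above 99.8% of 1177 genes with coding sequences of similar length (1140 to 1362 bases), whose median was 0.07. High against low polysome, Casq2 rose by 1.77 (SE 0.14, adjusted p = 1.60e-13), with gradients of 1.501, 1.91 and 1.86. Low polysome against monosome, its change was 0.9988 (SE 0.19, adjusted p = 2.68e-05), which lies on the fold threshold and was not called. With the gradient as a block it was 1.02 and called, and it was also called without KO gradient 1 (1.09) or 2 (1.16), but it was 0.74 without KO gradient 3.

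Adgrg5 was called in the last step of the gradient. High against low polysome it rose by 1.22 (SE 0.18, adjusted p = 2.93e-07), and the 3 KO gradients gave 1.16, 1.30 and 1.15. Low polysome against monosome the change was -0.24 (SE 0.21, adjusted p = 0.356), with gradients of -0.32, -0.45 and 0.09. High polysome against monosome it was 0.98 (SE 0.19, adjusted p = 2.12e-05), just under the fold threshold. With the gradient as a block this change was 1.006 and called, and it was called as well without KO gradient 1 (1.06), KO gradient 2 (1.06) or WT gradient 2 (1.01), and 0.82 without KO gradient 3. Genes of similar coding length (1362 to 1611 bases) had a median of 0.23.

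Adam23 was called in the first step. Low polysome against monosome it rose by 1.41 (SE 0.14, adjusted p = 5.94e-11), with 1.18, 1.57 and 1.47 in the 3 KO gradients, and ranked 291st of 12851 genes. High against low polysome the change was -0.13 (SE 0.13, adjusted p = 0.422), with gradients of -0.09, 0.07 and -0.35. High polysome against monosome it rose by 1.29 (SE 0.14, adjusted p = 9.21e-11), or 2.44-fold, above 81.6% of 1176 genes with coding sequences of 2460 to 3408 bases, whose median was 0.45.

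Foxd1 passed the test in none of the 3 contrasts. Its changes were -0.32 high polysome against monosome (SE 0.18, adjusted p = 0.118), -0.04 low polysome against monosome (SE 0.18, adjusted p = 0.873) and -0.28 high against low polysome (SE 0.17, adjusted p = 0.170). All 3 KO gradients had less Foxd1 in high polysomes than in monosomes, by log2 ratios of -0.15, -0.46 and -0.29. It lay above 30.5% of the genes of similar coding length in that ratio.

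These changes are relative to the TMM scale. With total counts in its place, the median of all genes in KO high polysome against monosome went from -0.07 to -0.32 on the log2 scale, and the calls from 2243 higher and 3277 lower to 1551 and 3932. The member values were then 2.52 for Casq2, 0.73 for Adgrg5, 1.04 for Adam23 and -0.57 for Foxd1 (adjusted p = 0.00603, against 0.00603 to 0.379 over the alternatives, under the fold threshold).

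**Figure D3:**
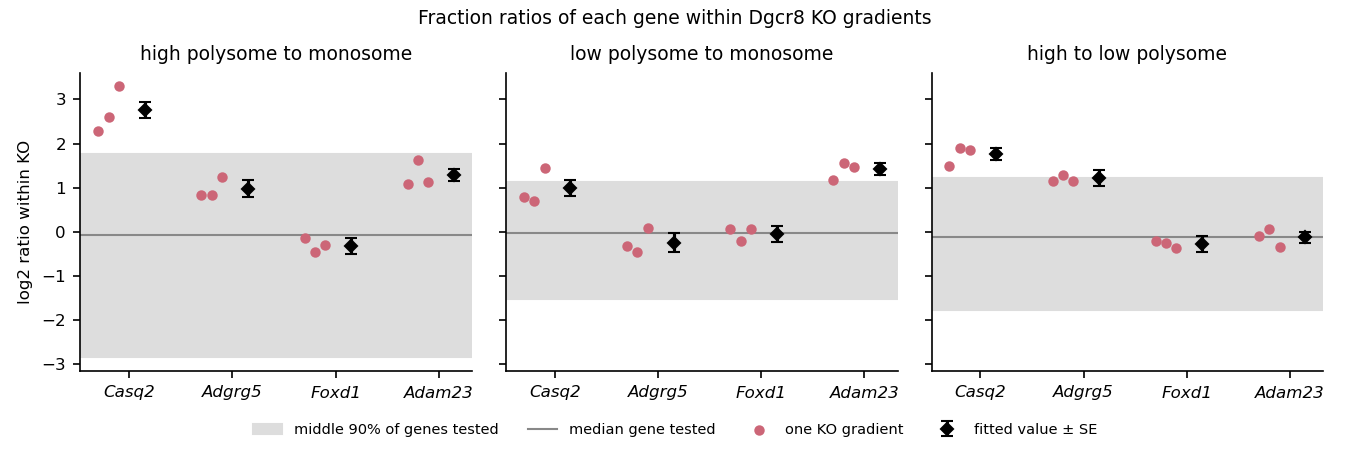
Log2 ratio of each gene between 2 fractions of the KO gradients (y axis), 1 panel per pair of fractions, with genes on the x axis. Red points are the 3 KO gradients, black diamonds the limma value ± SE, the grey line the median and the grey band the 5th to 95th percentile of 12851 genes. Casq2 lies above the band in high polysome to monosome and in high to low polysome, Adgrg5 at its upper edge in high to low polysome, Adam23 above it in low polysome to monosome, and Foxd1 near the median of every panel.

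Since Adam23 had reads in every WT library, its WT gradient is given beside that of KO cells, as a description with no test, because the WT values also chose the gene. In WT cells its log2 ratios of high polysome to monosome were 1.01, 0.58 and 1.07 in the 3 gradients, and those of low polysome to monosome 1.34, 0.99 and 0.75. The fitted changes were 0.85 (SE 0.31) and 0.99 (SE 0.30). The difference between the genotypes, KO minus WT, was 0.44 (SE 0.33) and 0.42 (SE 0.33). Ratios of the WT fractions are not given for Casq2, Adgrg5 and Foxd1, whose WT libraries held 0 to 9 reads.

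Each member belongs to a gene family or pathway, and the other genes of these were compared between KO and WT in the same fit. The lists were written with earlier results of these data known, and the share of all genes called in either direction was 18.1% for monosomes, 25.0% for low and 33.1% for high polysomes, of which 9.63%, 13.6% and 17.9% of all genes were called lower.

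The ADAM family, membrane proteins many of which shed the outer parts of other proteins, had more genes called higher than lower. Of 31 genes besides Adam23, 9 were tested. Monosomes of KO cells had 3 of the 9 called higher, low polysomes 5 and high polysomes 6, and none was called lower. Their median log2 change was 0.79, 1.26 and 1.37 in that order, against -0.05, 0.00 and -0.08 over all genes. Adam19 rose in all 3 fractions, by 1.44 (SE 0.15, adjusted p = 4.53e-10), 1.93 (SE 0.13, adjusted p = 6.12e-16) and 2.09 (SE 0.12, adjusted p = 1.24e-17). Adam10, a main sheddase of Notch, and Adam15 rose in all 3 as well, by 1.26 to 1.37 and by 1.07 to 1.34. Adam17, which sheds TNF, and Adam9 rose in low polysomes (1.38 and 1.29) and high polysomes (1.97 and 1.15). Adam22, the closest relative of Adam23 as an LGI receptor and named after its values were seen, had changes of -0.18, -0.33 and -0.04. Of 6 genes for ligands and integrin partners of ADAM23, 3 were tested. Itgav, the integrin alpha V chain, rose by 2.05, 1.99 and 3.08 in monosomes, low and high polysomes. Lgi2 rose in high polysomes by 1.41 (SE 0.38, adjusted p = 0.00136), and Itgb3, the beta 3 partner of Itgav, fell by 1.38 in monosomes on the log2 scale (SE 0.41, adjusted p = 0.00664).

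Adhesion G protein-coupled receptors moved in both directions. Of 29 genes besides Adgrg5, 14 were tested. In monosomes 3 rose and 1 fell, in low polysomes 3 rose and 2 fell, and in high polysomes 5 rose and 2 fell. The higher ones in all 3 fractions were Adgrg6, which acts in Schwann cells (2.98, 3.67 and 4.25), Adgrl2, a latrophilin (1.74, 2.49 and 3.19), and Adgrg1 (1.66, 2.47 and 2.89). Adgrg6 had 3 to 22 reads in WT libraries and 73 to 544 in KO libraries. Adgrd1 fell by 2.31, 2.87 and 1.79 on the log2 scale in the same order, and Adgrv1 by 2.03 in low and 1.497 in high polysomes. Their median over the 14 genes was 0.03, 0.04 and 0.59.

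Of 43 forkhead genes besides Foxd1, 19 were tested. In monosomes 1 rose and 3 fell, in low polysomes 3 rose and none fell, and in high polysomes 4 rose and 1 fell, with medians of -0.06, 0.08 and 0.32. Foxp1 rose in all 3 fractions (1.07, 1.83 and 1.84), the monosome call being lost under 3 of 14 alternatives. Foxd3, a factor that ESCs need, rose by 1.42 in low (SE 0.15, adjusted p = 2.15e-10) and 1.05 in high polysomes (SE 0.14, adjusted p = 4.07e-08, lost under 4 of 14 alternatives), and its monosome value was 0.52 (SE 0.18, adjusted p = 0.0177). Foxe1 rose in low polysomes (1.48), where single libraries held 1 to 21 reads and the call was lost under 4 of 12 alternatives, and its monosome value was 1.04 (SE 0.91). Foxr1 fell by 1.67 in high polysomes and Foxo6 by 1.43 in monosomes, both on the log2 scale. The monosome call of Foxr1 (-1.54, adjusted p = 0.0354) was lost under 8 of 13 alternatives.

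Of 31 genes for calcium storage and release besides Casq2, 22 were tested. In monosomes 3 rose and 2 fell, in low polysomes 6 rose and 4 fell, and in high polysomes 7 rose and 6 fell. Atp2a2, the SERCA2 pump that loads the store, rose by 1.10 in low polysomes (SE 0.11, adjusted p = 7.88e-11) and 1.91 in high polysomes (SE 0.11, adjusted p = 3.93e-18). Itpr3, an inositol trisphosphate receptor, rose by 1.25 in monosomes and 1.88 in high polysomes. Ryr3, a ryanodine receptor, fell in all 3 fractions. It had 4 to 6 reads in the WT and none in the 3 KO monosome libraries, 10 to 19 and 1 to 2 reads in low polysomes, and 5 to 18 and 2 to 5 reads in high polysomes (-1.87). Hrc, a calcium-binding protein of the same compartment as Casq2, fell by 3.05 in high polysomes (SE 0.74, adjusted p = 5.32e-04), and Jph3, a junctophilin, by 2.09 in low and 1.86 in high polysomes, both on the log2 scale.

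**Figure D4:**
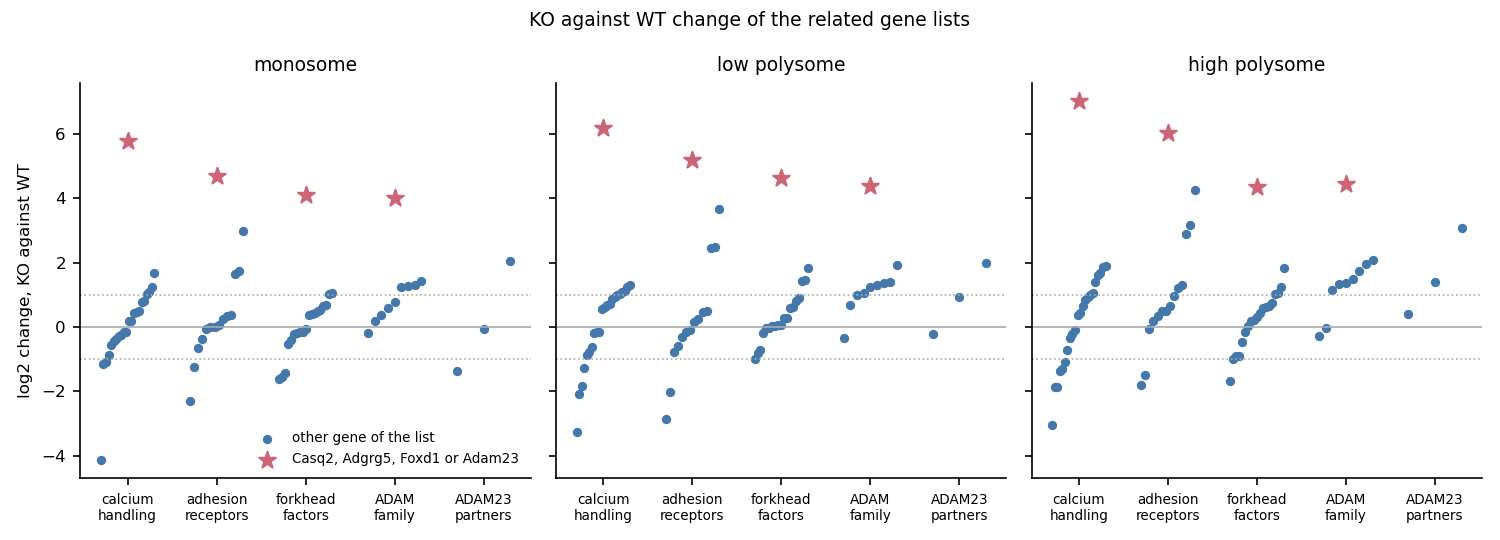
Log2 change of KO against WT (y axis) for the tested genes of 5 lists (x axis), 1 panel per fraction. Blue points are limma values of the other genes of each list, in order of size, red stars the log2 ratio of pooled reads of Casq2, Adgrg5, Foxd1 and Adam23, and dotted lines the fold threshold of 1. Each star lies above all other genes of its list, which the choice of the 4 genes bears on, and 7 of the 9 other ADAM genes lie above 1 in high polysomes.

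Markers of cell types in which these genes are known were examined in the same libraries, and their part in the result was not tested. Of 15 heart and skeletal muscle markers, 3 were tested. Tnni3 was lower in low polysomes (-1.34) and Ryr2 higher in low and high polysomes (1.32 and 1.01, the latter lost under 7 of 13 alternatives), the summed level was 21.02 to 73.6 CPM in WT and 15.4 to 60.2 CPM in KO libraries, and Myod1 had no read. The summed level of 10 kidney stromal and progenitor markers was 8.84 to 20.7 CPM in WT and 7.93 to 21.5 CPM in KO libraries, and Hoxd11 had no read. Of 10 neuronal markers 5 were tested. Tubb3 fell in monosomes, Stmn2 rose in low polysomes, and Gap43 and Elavl3 fell in high polysomes, at 237 to 466 CPM in all in WT and 267 to 611 CPM in KO libraries, and Snap25 had no read.

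Of 10 leukocyte markers, 3 had enough reads to test, and these were higher in KO cells like the members. They were called higher in low and high polysomes, namely Cd3e (2.31 and 2.07), Cd68 (2.01 and 1.95) and Laptm5 (1.57 and 1.41). Cd3e was also called higher in monosomes (2.63). The summed level of all 10 was 242 to 421 CPM in WT and 420 to 1216 CPM in KO libraries. The other 7 held at most 6 reads in any library, and Tyrobp had none in all 18 and Ptprc, the gene of the pan-leukocyte antigen CD45, at most 1. Of 10 fibroblast markers 3 were tested, with Fbln1 higher (1.08, 1.15 and 2.38) and Col1a1 lower (-2.78, -2.22 and -1.59) in all 3 fractions, the last 2 values of Col1a1 losing their call under 3 of 13 and 6 of 12 alternatives. Their summed level was 22.99 to 66.6 CPM in WT and 45.0 to 343 CPM in KO libraries, and Postn had no read in WT.

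The remaining lists moved little or the other way. Of 10 naive ESC markers, none was called in monosomes or low polysomes, while Pou5f1 (-1.42) and Dppa5a (-1.65) were lower in high polysomes, at summed levels of 3505 to 6045 CPM in WT and 3485 to 4387 CPM in KO libraries. Of 10 primitive endoderm markers 5 were tested. In monosomes 3 fell, in low polysomes 3 fell, and in high polysomes 2 fell and 1 rose. Lama1 was lower in all 3 fractions (-2.47, -2.06 and -1.36), and Lamb1 was lower in monosomes (-1.23). The rise, that of Pdgfra, was lost under 8 of 13 alternatives. The low polysome fall of Dab2 was lost under 5 of 12. The falls of Col4a1 were lost under 3 of 14 in monosomes and 4 of 14 in low polysomes. Of 8 trophectoderm markers 5 were tested, with Krt18 lower in monosomes (-2.04) and Krt8 higher in high polysomes (1.22, lost under 4 of 13 alternatives). Some calls given so far for single genes of the lists were lost under 1 or 2 alternatives each. In high polysomes these were the calls of Jph3, Adgrv1, Elavl3 and Adam9, and in low polysomes those of Atp2a2, Adam15, Ryr2 and Fbln1. In monosomes they were the calls of Foxo6, Lamb1 and Fbln1. Whether a change differed between fractions was also fitted, and of all genes 6.29% were called higher and 8.81% lower for high polysome to monosome (15.1% in either direction), and 1.23% higher and 3.81% lower for low polysome to monosome (5.03% in either direction).

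The chromosomal surroundings differed between the members. Of the 16 protein-coding genes nearest to them, 2 on each side, 7 were tested. In monosomes 2 rose and 2 fell, in low polysomes 2 rose and 1 fell, and in high polysomes 3 rose and 1 fell. Of all genes tested, 8.43%, 11.4% and 15.1% were called higher in the same order, and 9.63%, 13.6% and 17.9% lower. With 7 genes, the counts cannot be set apart from these shares. Both tested genes that rose in all 3 fractions flank Adgrg5. Adgrg1, which starts 31471 bases beyond Adgrg5 in a cluster of related receptors, rose as given above, and Ccdc102a, 5596 bases before it on the other strand, rose by 2.02 (SE 0.36, adjusted p = 1.88e-05), 1.86 (SE 0.29, adjusted p = 7.79e-07) and 1.82 (SE 0.26, adjusted p = 1.25e-07). Dok4, 47364 bases before Adgrg5, was not called (0.55, 0.96 and 0.21).

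Next to Casq2, Vangl1, a planar cell polarity gene 7069 bases beyond it on the other strand, had changes of 0.66 in monosomes and 0.93 in low polysomes and rose by 1.20 in high polysomes (SE 0.12, adjusted p = 5.46e-11), but by 0.98 and without a call with total counts. Near Foxd1, Btf3, a gene with near-identical copies that make its counts uncertain, was lower in high polysomes (-1.73), and Gm10320 was lower in low polysomes (-1.81). Their monosome calls did not hold, that of Btf3 (-1.05, adjusted p = 0.0488) being lost under 9 of 14 alternatives and that of Gm10320 (-1.34, adjusted p = 0.0322) under 6 of 13. Near Adam23, Zdbf2 was not called (0.46, 0.30 and 0.54).

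Inside Casq2, the noncoding transcript 4632404M16Rik lies on the same strand at 102134615 to 102137496 of chromosome 3, annotated as intronic, and ends 9018 bases before the 3′ end of Casq2. It was too low to test and was singled out after its values were seen. It had no read in the 9 WT libraries and 64 in the 9 KO libraries, namely 1, 4 and 2 in monosomes, 11, 18 and 14 in low polysomes and 6, 7 and 1 in high polysomes. Unlike the reads of Casq2, most of these were in low polysomes. Gpr1, 231348 bases before Adam23 and also untested, had 2 reads in WT and 57 in KO libraries.

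The promoters of the 4 genes, taken as RefSeq windows of 300 bases around the start (GRCm38), had little in common. Adam23 had 31 CpG dinucleotides, more than 85.6% of 20150 promoters, Foxd1 had 15, Adgrg5 had 7 and Casq2 had 6, where the median promoter had 14. On either strand, TATAAA (in 12.2% of promoters) and the E-box CACGTG (in 8.03%) were in none of the 4. GGGCGG (in 47.8%) was in those of Adgrg5 and Foxd1, and CCAAT (in 37.8%) in that of Foxd1. The 4 motifs were searched separately and may overlap in a sequence.

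The genes most like each member across the 18 libraries were taken by Pearson's r of log2 CPM. WT and KO libraries form separate clusters for the members, so that r within the 9 KO libraries is given beside it, both as descriptions. For Casq2 they were Lamp2, a lysosomal membrane protein (r = 0.992, and 0.983 within KO), Lefty1, a Nodal antagonist (0.990 and 0.972), and Megf11 (0.988 and 0.979). For Adgrg5 they were Zp3 (0.977 and 0.641), Robo4 (0.973 and 0.874) and Il2rg (0.971 and 0.875). For Adam23 they were Clstn3 (0.986 and 0.839), Porcn, which acylates Wnt proteins (0.985 and 0.867), and Bace1, the beta-secretase (0.985 and 0.893). For Foxd1 they were the receptor tyrosine kinase Axl (0.977 and 0.428), Cavin3 (0.971 and 0.388) and Ptgs1 (0.966 and 0.137). Among the members, r within the 9 KO libraries was 0.819 between Casq2 and Adgrg5, 0.682 between Casq2 and Adam23 and -0.547 between Casq2 and Foxd1.

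A stricter count rule picked other genes. With at most 3 reads in each WT library and at least 10 in each KO library, 6 genes passed and none was a member, as each member had a WT library with more than 3 reads. They were Nt5e (CD73), Tff2, the immunoproteasome subunit Psmb8, Pdzrn4, the cyclooxygenase Ptgs1 and Doc2b, at mean KO levels of 7.17 to 18.3 CPM, under those of all 4 members. With the genotypes exchanged, 5 genes passed. In KO high polysome against monosome, 2 of the 6 were called higher, Psmb8 (1.51) and Nt5e (1.33), and 1 lower, Tff2 (-1.40).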

How the data were processed

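RNA of 18 gradient fractions was measured by 3′ end sequencing. The file deposited by the authors gives unnormalised read counts for each gene. Per the submitters' processing notes and methods, the authors trimmed reads with Cutadapt 1.14, aligned them to mm10 with STAR 2.5.3a, kept unique alignments and counted them by strand over GENCODE M14 exons, without rRNA genes and with ERCC spike-ins, using featureCounts 1.5.3. Molecular identifiers were not mentioned, so PCR copies may be counted.

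The 92 spike-in entries were left out. Symbols and coordinates came from GENCODE M21 on the same build (51274 of 51467 genes matched), and microRNA and promoter sequences from RefSeq. Genes that reached 3 CPM in 3 libraries were fitted with limma-voom (limma 3.58.1, edgeR 4.0.16, R 4.3.3) with TMM scaling and 1 mean per group. All tests were two-sided, p-values were adjusted by Benjamini-Hochberg, and all adjusted p-values are from limma. CPM levels use TMM-scaled totals, and log2 CPM a prior count of 2. On simulated counts of 12851 genes for KO high polysome against monosome, 73.1% of 2-fold and 97% of 4-fold changes were recovered. Recovery was counted without the fold threshold that calls needed. The median log2 estimate of the 2-fold changes was 0.986, under that threshold. No 2 libraries of a group were alike within sampling noise (chi-square per gene 1.92 or more). Nothing says that gradients came from separate cultures, so p-values measure the spread between gradients, which may be technical.

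Fractions of a number within a genotype came from one gradient, according to the protocol. Deviations from group means correlated by 0.0317 to 0.135 between such libraries (18 pairs, 4 over 0.1) and by -0.14 to 0.0761 between gradients, so the gradient was also fitted as a block, in limma. Other choices of the test, scaling, filter, call rule, libraries and replicates were tried, edgeR and DESeq2 1.42.0 among them.

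The members and lists were chosen with earlier results of these data known. Named besides the members were up to 5 called genes per list by mean absolute change, the 2 nearest protein-coding genes on each side, the 3 genes of highest r, and on-off genes by count. Some genes are not reported here.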

Additional observations from a re-analysis of the deposited data

Results flagged for a closer look

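For 13 genes named above besides the members, the change between KO and WT differed between fractions, by the interaction of genotype and fraction in limma. The 4 members were left out, since their difference between KO and WT chose them. The calls are from the main fit with TMM scaling and were not followed under the alternatives. With total counts, the median log2 change of all genes in KO against WT went from -0.08 to -0.31 in high polysomes. In monosomes it went from -0.05 to 0.05. Whether differences near the fold threshold of 1 hold on that scale was not tested. The high polysome to monosome ratio was higher in KO than in WT cells for Adgrg1 (log2 difference 1.23, SE 0.42, adjusted p = 0.0243), which lies next to Adgrg5, and for Adgrl2 (1.45, SE 0.32, adjusted p = 5.24e-04), both adhesion receptors. It was also higher for Atp2a2 (1.135, SE 0.16, adjusted p = 1.00e-06), Adam17 (1.17, SE 0.20, adjusted p = 2.03e-05), Lgi2 (1.49, SE 0.50, adjusted p = 0.0211), Itgb3 (1.775, SE 0.45, adjusted p = 0.00262), Cd68 (1.05, SE 0.25, adjusted p = 0.00153) and Fbln1 (1.30, SE 0.34, adjusted p = 0.00296). It was lower for the ESC markers Pou5f1 (-1.77, SE 0.29, adjusted p = 7.74e-06) and Dppa5a (-1.57, SE 0.27, adjusted p = 2.88e-05). The low polysome to monosome ratio was higher in KO cells for Stmn2 (1.003, SE 0.18, adjusted p = 1.32e-04), Cd68 (1.11, SE 0.26, adjusted p = 0.00261), Laptm5 (1.06, SE 0.18, adjusted p = 3.44e-05) and Krt18 (2.01, SE 0.60, adjusted p = 0.0219). Across all genes tested, 15.1% were called in the first of these differences and 5.03% in the second. Genes of the lists were named by the size of their KO to WT change in the same libraries. The 13 genes can therefore not be compared with these shares. The value of Krt18 rests on few and uneven reads. It had 7 to 31 reads in the KO low polysome libraries (4.98 ± 3.97 CPM, SD, n = 3) and 5 to 10 in the KO monosome libraries. These differences were looked up only for the tested flanking genes and for up to 5 called genes per list. The others among those had no call in either difference. The remaining genes of the lists were not looked up, so that further calls among them are possible.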

How the results depend on the processing

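Casq2 high polysome against monosome and against low polysome, Adgrg5 high against low polysome, and Adam23 high and low polysome against monosome kept their direction and their call under all 14 alternatives, at 2.46 to 2.98, 1.60 to 1.89, 1.05 to 1.27, 1.04 to 1.38 and 1.34 to 1.52. Values near the fold threshold crossed it. Casq2 low polysome against monosome was called without a filter (1.03) and with the replicate block by gradient (1.02), and ranged from 0.74 to 1.16 when 1 gradient was left out. Adgrg5 high polysome against monosome was called with DESeq2 (1.005), without a filter (1.035) and with the replicate block (1.006), and ranged from 0.82 to 1.06. By adjusted p alone, without the fold threshold, both were called at their values of 0.9988 for Casq2 and 0.9773 for Adgrg5. The block changed no other call of a member.

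By adjusted p alone, genes called in KO were 8701 high polysome against monosome, 5783 low polysome against monosome and 7192 high against low polysome, and in KO against WT 4797, 6716 and 7802 from monosome to high polysome, against 5520, 2161, 3319, 2320, 3216 and 4249. Without a filter 3679 genes were called in monosomes. With total counts, Foxd1 in KO high polysomes was 31.8 CPM and the log2 KO to WT ratio of Adam23 there 4.225, and calls in KO against WT high polysomes were 31.4% higher in place of 45.8%. Total counts gave 20.7% higher calls in KO high against low polysome in place of 36.5%. Leaving out a library moved the log2 KO to WT ratio of Casq2 in low polysomes to 6.02 to 6.401, and of Adgrg5 to 4.92 to 5.75 in low and 5.46 to 7.52 in high polysomes, the last without WT replicate 1, which held 6 of its 8 WT reads. Counting matches of 8 bases only left 1 gene with an ESCC match. By Spearman's rho, 0 of the 3 most similar genes of each member were among those by Pearson's r. Of 2132 other values of named genes, 88 lost and 62 gained a call, the gains by adjusted p alone included. No value with a call in the main fit or the alternative changed its sign. Sign changes of values without a call were not counted, such as that of Dok4 in high polysomes (0.21, and -0.02 with total counts).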
